A study of Mus musculus with 20 samples.

Results

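The 39 genes described here are taken from the machinery that carries a cell through DNA replication and division, and were read out by gene symbol from a count table of 43430 genes. They fall into 18 genes of the G1/S transition and DNA replication and 21 genes of G2 and mitosis. All 39 were present, and 38 passed the filter on low counts that left 16152 genes for testing. The checkpoint kinase gene *Bub1* (0 to 25 counts per library) did not pass. The kidney cortex of 20 male C3H/HeJ mice was profiled by poly(A) RNA sequencing, 1 library per mouse, with 5 mice in each of the groups WT placebo, WT MAT2Ai, SP placebo and SP MAT2Ai. SP (Sweet Pee) mice, which the labels call Sglt2 mutant, are homozygous for a missense mutation of *Slc5a2*, the gene of the glucose cotransporter SGLT2. They make no working SGLT2 protein, and the WT mice lack the mutation. All mice were 10 weeks old at the start, ate a high-fat diet for 8 weeks and stayed on the study for 8 more weeks of injections into the peritoneum, 3 per week, of DMSO (placebo) or of 10 mg/kg MAT2Ai. MAT2Ai is a small molecule against MAT2A, the enzyme that makes the methyl donor S-adenosylmethionine from methionine.

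Dividing cells switch these genes on in 2 waves. The first is driven by E2F factors as cells pass from G1 into S phase and supplies cyclin E, the proteins that load and start the MCM helicase, and the enzymes that make deoxynucleotides. The second is driven by the MuvB complex with B-MYB and FOXM1 and supplies the kinases, cyclins and spindle proteins of mitosis. In the resting kidney few tubule cells divide, and proximal tubule cells re-enter the cycle after injury.

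Of the 39 genes, 30 had a promoter window in the RefSeq table (GRCm38.p6; 250 bases before to 50 bases after the gene start), and *Ccne2*, *Gins2*, *Mcm4*, *Ccna2*, *Aurkb*, *Kif20a*, *Tpx2*, *Foxm1* and *Stmn1* did not. Letters of the sites tied to the 2 waves were searched on both strands: the cell cycle homology region of the mitotic wave (CHR, the letters TTTGAA or the letters TTCGAA), E2F (the letters TTTCGCG, the letters TTTGGCG or the letters TTCCCGC) and the CCAAT box. CHR letters stood in 12 of the 15 G2/M windows (80%), in 3 of the 15 G1/S windows (20%) and in 19.2% of all 32851 windows. E2F letters stood in 7 of 15 G1/S windows (46.7%), 1 of 15 G2/M windows (6.67%) and 6.72% of all windows. CCAAT stood in 13 of 15 G2/M windows (86.7%), 9 of 15 G1/S windows (60%) and 37.4% of all windows, and CHR and CCAAT stood together in 12 of 15 G2/M windows against 7.53% of all. The 15 of each set are genes with the windows of 1 gene joined, while the 32851 are single windows. A gene with more than 1 window thus had more chances to match. A match of letters is a description and not a measured site.

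The windows of 4 genes are printed 5′ to 3′ on the strand of the gene, with every match of the 3 motifs in capitals; touching or overlapping matches run together. *Nusap1*, chr2:119618048-119618347 (plus strand), and *Plk1*, chr7:122159185-122159484 (plus strand), are the G2/M genes with the smallest p in the WT and in the SP inhibitor comparison. *Mcm6*, chr1:128359656-128359955 (minus strand), is the G1/S gene with the smallest p in the SP comparison. *Top2a*, chr11:99024140-99024439 (minus strand), was chosen after the matches were counted, because it held 4 CHR and 6 CCAAT matches.
Nusap1: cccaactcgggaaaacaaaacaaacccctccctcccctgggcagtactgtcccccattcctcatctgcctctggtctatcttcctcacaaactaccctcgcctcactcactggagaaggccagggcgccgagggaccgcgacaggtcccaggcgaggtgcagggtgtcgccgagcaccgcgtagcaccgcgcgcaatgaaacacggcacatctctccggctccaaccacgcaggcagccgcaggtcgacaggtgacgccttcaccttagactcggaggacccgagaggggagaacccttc
Plk1: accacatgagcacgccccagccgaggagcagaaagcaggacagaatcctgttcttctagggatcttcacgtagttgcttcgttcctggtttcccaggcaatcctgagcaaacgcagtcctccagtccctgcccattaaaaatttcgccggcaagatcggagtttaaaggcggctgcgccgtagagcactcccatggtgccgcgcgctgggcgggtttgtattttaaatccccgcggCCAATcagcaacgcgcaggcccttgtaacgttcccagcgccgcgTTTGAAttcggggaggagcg
Mcm6: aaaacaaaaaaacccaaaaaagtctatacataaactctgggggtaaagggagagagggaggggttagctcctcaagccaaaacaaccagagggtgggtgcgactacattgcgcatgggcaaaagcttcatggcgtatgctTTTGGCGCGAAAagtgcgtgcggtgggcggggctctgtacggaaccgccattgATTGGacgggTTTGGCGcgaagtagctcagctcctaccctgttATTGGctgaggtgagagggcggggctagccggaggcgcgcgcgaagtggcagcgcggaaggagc
Top2a: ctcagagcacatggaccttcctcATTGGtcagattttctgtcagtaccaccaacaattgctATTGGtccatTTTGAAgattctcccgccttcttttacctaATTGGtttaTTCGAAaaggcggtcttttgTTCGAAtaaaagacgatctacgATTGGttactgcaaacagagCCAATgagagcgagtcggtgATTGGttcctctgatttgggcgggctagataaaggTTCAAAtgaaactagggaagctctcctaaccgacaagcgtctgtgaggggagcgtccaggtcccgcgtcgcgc
The *Nusap1* window held none of these letters. The *Plk1* window held 1 CCAAT and 1 CHR match, and the *Mcm6* window held 3 E2F matches, a pair of them overlapping, and 2 CCAAT matches read on the opposite strand.

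The count files held 53296824 to 79339949 gene counts per library, of which the 39 genes took 7052 to 11398 (128 to 176 CPM before TMM scaling). Levels are given as CPM (gene counts scaled to a common library size, with TMM factors) and, between genes, as RPKM (CPM divided by the annotated exon length in kilobases). *Stmn1*, a microtubule destabilizer that some resting cells also make, had the highest mean at 13.2 RPKM. It was followed by *Pcna*, the sliding clamp of DNA polymerase (6.59 RPKM), and the helicase genes *Mcm6* (3.33 RPKM) and *Mcm7* (2.79 RPKM). Among G1/S genes the median was 0.968 RPKM and *Cdc6*, a loader of the helicase, was lowest at 0.0349 RPKM. The G2/M genes lay lower, with a median of 0.184 RPKM, and 15 of 21 averaged under 1 CPM, against 3 of 18 G1/S genes. At such levels a library held few reads of a gene, for example 6 to 44 counts of *Ccnb1* and 1 to 30 counts of *Cdc6*. Exons shared with a gene on the opposite strand covered 67.3% of the exon bases of *Gins2* (with *Gse1*), 29.3% of *Kif20a* (with *Cdc23*) and 22.8% of *Ube2c* (with *Tnnc2*), and the strand setting of the counting is not given in the sources used here.

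In whole tissue, fewer dividing cells and less of a transcript per cell cannot be told apart. The library of WT MAT2Ai replicate 2 stood apart from the rest, at 89.7 on the first principal component (20.5% of the variance) against at most 21.8 (WT MAT2Ai replicate 3) elsewhere. Its 9 injured tubule markers (among them *Havcr1* and *Lcn2*) summed to 8053 CPM, against 444 to 956 CPM in the other 19 libraries, and none of the 9 was lost to the filter. Its 7 proximal tubule markers, present in every library, summed to 6961 CPM against 8882 to 11915 CPM. SP placebo replicates 1 and 2 held 241 and 282 CPM of *Slc5a2*, against 40.3 to 86.0 CPM in the other 8 SP libraries and 229 to 518 CPM in WT, so the libraries carrying those labels went against their genotype by this transcript. Values without WT MAT2Ai replicates 2 and 3, and without SP placebo replicates 1 and 2, are given where they differ.

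**Figure D1:**
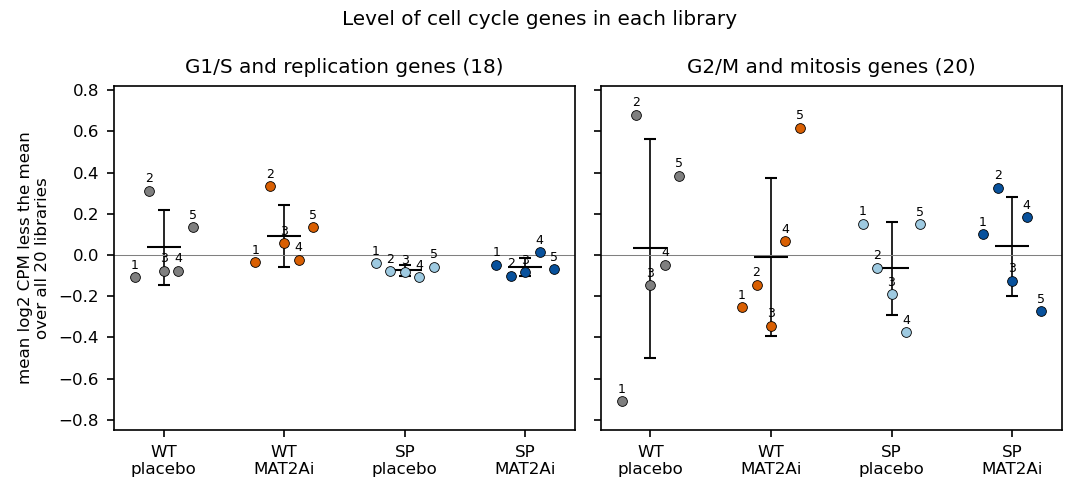
Mean log2 CPM of the 18 G1/S genes (left) and the 20 G2/M genes that passed the filter (right) in each library, less the mean over all 20 libraries; points are libraries numbered by replicate, the bar and whiskers are the mean and SD of 5. The G2/M values run from −0.71 (WT placebo 1) to 0.68 (WT placebo 2) within a single group, while the 4 group means lie between −0.06 and 0.04.

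In WT kidneys none of the 38 genes passed the test for a difference between MAT2Ai and placebo. The edgeR quasi-likelihood test, with p values adjusted over all 16152 genes (the source of every p and of every share of all genes below unless another tool is named), passed 0 of 38, where 0% of all genes passed. At an unadjusted p under 0.05 there were 2 of 38, *Nusap1* higher and *Cdc20* lower, against 15.7% of all genes. DESeq2 passed 0 of 38 with the same 2 genes at an unadjusted p under 0.05, and limma-voom passed 0 with 0 at that level. Every share of all genes at an unadjusted p is that of edgeR. Counts by DESeq2 and limma-voom at that level, here and below, have no share beside them. The fitted log2 fold changes (MAT2Ai over placebo) ran from −0.76 (*Aurkb*, mitotic kinase) to 0.86 (*Nusap1*), with a median of −0.01 over the 38, 0.03 over the 18 G1/S genes and −0.02 over the 20 G2/M genes, beside 0.01 over all genes. There were 18 positive and 20 negative values, and without WT MAT2Ai replicates 2 and 3 the median was 0.00 with 20 positive of 39 genes, since *Bub1* passed the filter in that and some other subsets. Leaving out single libraries moved the split between 15 positive of 39 (without WT placebo 1 or without WT MAT2Ai 5) and 27 of 38 (without WT placebo 2). In the same comparison the values were positive for 9 of 9 injured tubule markers (median 2.21). The sum of these 9 markers was 8053 CPM in WT MAT2Ai replicate 2. It was 527 to 956 CPM in the other WT MAT2Ai libraries and 502 to 589 CPM in WT placebo. Values were negative for 8 of 8 lymphocyte, 5 of 6 erythroid and 6 of 7 proximal tubule markers (medians −0.40, −0.31 and −0.24). None of these markers passed, and their part in the values of the 38 genes was not tested.

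In SP kidneys none passed either. There, 0 of 38 passed, where 0.0186% of all genes did, and DESeq2 and limma-voom passed 0 of 38 as well. At an unadjusted p under 0.05 edgeR and DESeq2 had 1 gene, *Mcm6*, against 5.92% of all genes by edgeR. Limma-voom had 4, *Cdt1* higher and *Cdc6*, *Mcm6* and *Prc1* lower, a count without its own share of all genes. The values ran from −0.72 (*Cdc6*) to 0.63 (*Plk1*), and 28 of 38 were positive, with a median of 0.07 beside 0.00 over all genes. Without SP placebo replicates 1 and 2 there were 28 positive of 39 and a median of 0.12. In the same comparison the fitted values were negative for 6 of 6 endothelial, 6 of 6 erythroid, 7 of 8 lymphocyte and 7 of 8 macrophage markers tested (medians −0.52, −0.72, −0.74 and −0.40) and positive for 4 of 4 neutrophil and 8 of 9 injured tubule markers (0.29 and 0.28). None of these markers passed, and 50.6% of all genes had positive values. The endothelial markers summed to 102 to 174 CPM in SP placebo and 81.5 to 119 CPM in SP MAT2Ai, the erythroid markers to 313 to 1015 CPM and 228 to 657 CPM, the lymphocyte markers to 8.19 to 22.9 CPM and 3.10 to 7.64 CPM, and the macrophage markers to 53.1 to 99.6 CPM and 32.2 to 66.9 CPM, and the part of these lists in the values of the 38 genes was not tested.

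The precision of these comparisons differed by gene. For 25 of 38 genes in WT and 27 of 38 in SP, the 95% interval of the fold change lay within a 2-fold change either way. The narrowest interval in WT reached 0.14 on the log2 scale to either side (*Stmn1*) and the widest 1.12 (*Aurkb*), with medians of 0.40 over the G1/S and 0.76 over the G2/M genes. For 13 genes in WT, 11 of them of G2/M, the interval reached past a 2-fold change, so that a difference of that size was not resolved.

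**Figure D2:**
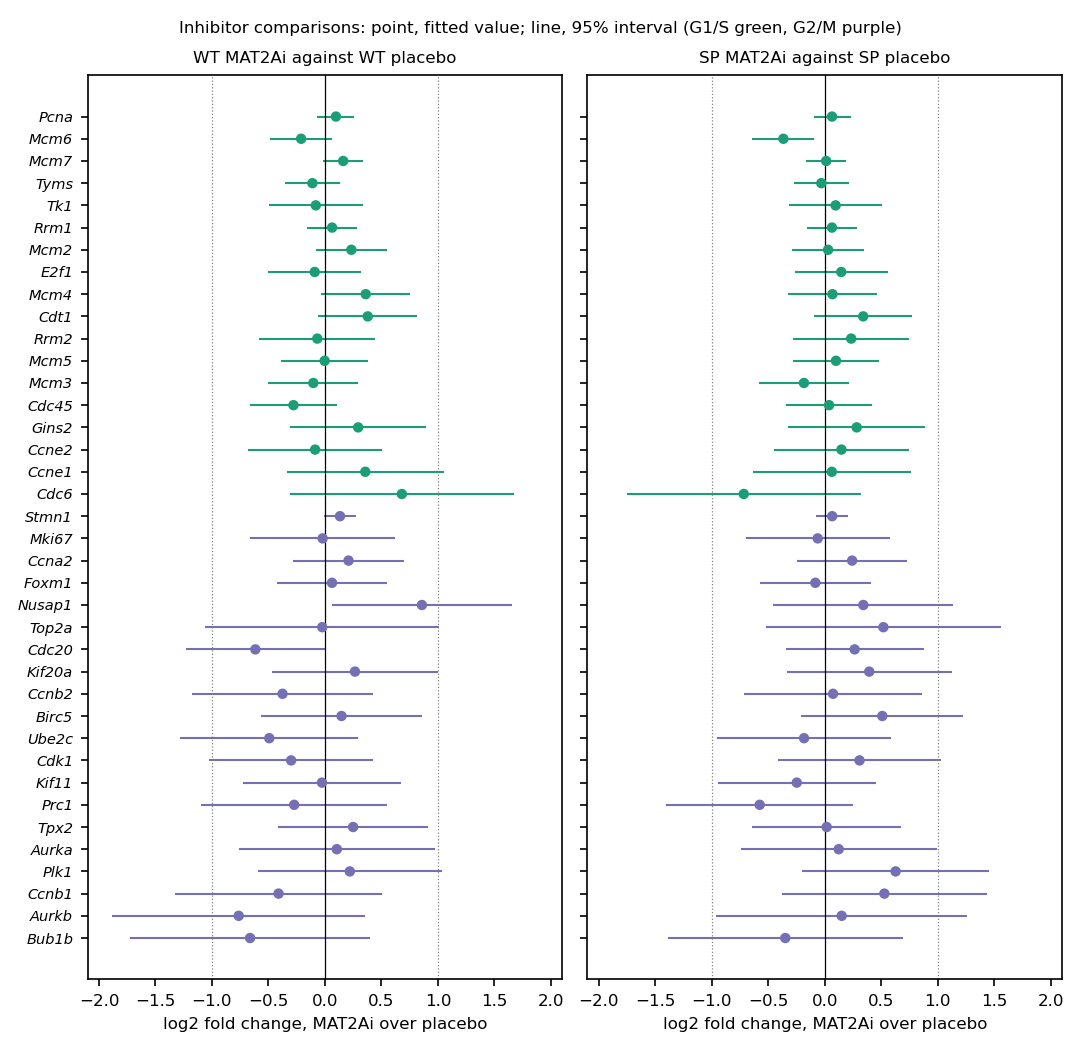
Fitted log2 fold changes of the 38 genes (points) with 95% intervals (lines) for WT MAT2Ai against WT placebo (left) and SP MAT2Ai against SP placebo (right); G1/S genes are green and G2/M genes purple, each in order of mean CPM, and dotted lines mark a 2-fold change. No gene passed an adjusted p of 0.05 in either panel, and the intervals widen from *Stmn1* and *Pcna* to the scarce genes *Aurkb*, *Bub1b* and *Cdc6*.

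Among the start and licensing genes, *Ccne1* encodes cyclin E1, the partner of CDK2. *Ccne1* stood at 0.493, 0.387, 0.372, 0.432 and 0.469 CPM in WT placebo, against 0.482, 0.823, 0.345, 0.639 and 0.47 CPM in WT MAT2Ai, given as replicates 1 to 5 in order here and below. In SP kidneys *Ccne1* stood at 0.463, 0.472, 0.203, 0.262 and 0.473 CPM with placebo and at 0.195, 0.394, 0.20, 0.566 and 0.593 CPM with MAT2Ai. The highest value lay in WT MAT2Ai replicate 2 and the groups overlapped in both genotypes, with fitted differences of 0.36 ± 0.33 (SE, adjusted p = 0.616) in WT and 0.06 ± 0.34 (SE, adjusted p = 0.995) in SP. *Cdc6* stood at 0.0758, 0.178, 0.194, 0.166 and 0.203 CPM in WT placebo, against 0.298, 0.466, 0.274, 0.071 and 0.209 CPM in WT MAT2Ai. In SP kidneys *Cdc6* stood at 0.163, 0.107, 0.156, 0.306 and 0.209 CPM with placebo and at 0.228, 0.102, 0.0833, 0.141 and 0.0152 CPM with MAT2Ai. The highest library was again WT MAT2Ai replicate 2, SP MAT2Ai replicate 5 held 1 count, and the groups overlapped. The fitted differences of *Cdc6* were 0.68 ± 0.48 (SE, adjusted p = 0.493) in WT and −0.72 ± 0.50 (SE, adjusted p = 0.959) in SP. Without WT MAT2Ai replicate 2 the difference in WT was 0.38 for *Cdc6* and 0.16 for *Ccne1*, and without SP MAT2Ai replicate 5 that of *Cdc6* in SP was −0.44. The interaction, which tests whether the response differs between genotypes, was −1.40 ± 0.69 (SE, adjusted p = 0.842).

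*Cdt1*, which brings the helicase to origins together with *Cdc6*, had the smallest p of the 38 after *Mcm6* in SP. *Cdt1* stood at 3.83, 3.36, 2.1, 2.18 and 2.77 CPM in WT placebo, against 3.49, 5.73, 3.37, 2.89 and 3.01 CPM in WT MAT2Ai. In SP kidneys *Cdt1* stood at 2.61, 2.83, 2.0, 3.64 and 2.81 CPM with placebo and at 2.67, 4.25, 3.35, 3.36 and 3.97 CPM with MAT2Ai. Replicate 2 stood above the other WT MAT2Ai libraries, and in SP 3 of the 5 MAT2Ai libraries lay within the placebo range, with a fitted difference of 0.34 ± 0.21 (SE, adjusted p = 0.939). In WT the difference was 0.38 ± 0.21 (SE, adjusted p = 0.379), and it was 0.16 without WT MAT2Ai replicate 2.

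*Mcm4*, *Mcm5* and *Mcm6* encode subunits of the replicative helicase. *Mcm4* stood at 2.39, 3.9, 3.14, 3.09 and 3.94 CPM in WT placebo, against 3.22, 6.35, 4.72, 3.32 and 3.53 CPM in WT MAT2Ai. In SP kidneys *Mcm4* stood at 2.38, 3.53, 3.77, 2.52 and 2.85 CPM with placebo and at 2.68, 3.29, 3.47, 2.94 and 3.39 CPM with MAT2Ai. WT MAT2Ai replicates 2 and 3 were the highest libraries, above all of WT placebo, and the difference in WT was 0.36 ± 0.19 (SE, adjusted p = 0.353), and 0.02 without them. *Mcm5* stood at 1.93, 3.41, 2.28, 2.68 and 2.97 CPM in WT placebo, against 2.24, 3.76, 2.45, 1.99 and 2.82 CPM in WT MAT2Ai. In SP kidneys *Mcm5* stood at 2.23, 1.74, 2.47, 1.95 and 1.93 CPM with placebo and at 2.34, 1.67, 2.1, 2.74 and 2.21 CPM with MAT2Ai. *Mcm5* overlapped throughout, with 0.00 ± 0.18 (SE, adjusted p = 0.996) in WT and 0.10 ± 0.18 (SE, adjusted p = 0.993) in SP.

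*Mcm6* had the smallest p in SP. *Mcm6* stood at 13.8, 17.5, 16.9, 17.7 and 20.01 CPM in WT placebo, against 16.1, 11.8, 18.7, 13.4 and 14.2 CPM in WT MAT2Ai. In SP kidneys *Mcm6* stood at 15.2, 19.3, 15.3, 17.9 and 17.4 CPM with placebo and at 16, 11.1, 10.3, 14.4 and 14.3 CPM with MAT2Ai. In all, 4 of the 5 SP MAT2Ai libraries lay below all 5 placebo libraries and replicate 1 lay among them. The difference was −0.37 ± 0.13 (SE, adjusted p = 0.833) in SP (unadjusted p = 0.0116, 95% interval −0.64 to −0.09), −0.35 without SP placebo replicates 1 and 2, and −0.21 ± 0.13 (SE, adjusted p = 0.437) in WT. Averaged over both genotypes it was −0.29 ± 0.09 (SE, adjusted p = 0.209), the smallest p of the 38 in that comparison.

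*Pcna*, whose protein clamps the polymerase to DNA, was among the most precisely measured genes. *Pcna* stood at 16.5, 16.9, 14.6, 14.8 and 16.5 CPM in WT placebo, against 16.4, 20.2, 17.2, 15.4 and 15.8 CPM in WT MAT2Ai. In SP kidneys *Pcna* stood at 14.1, 13.4, 16.1, 14.6 and 16.1 CPM with placebo and at 15.3, 15.4, 17.2, 14.3 and 15.7 CPM with MAT2Ai. WT MAT2Ai replicate 2 was the highest of all 20 and the groups overlapped. The difference was 0.10 ± 0.08 (SE, adjusted p = 0.555) in WT, with an interval of −0.07 to 0.26, and 0.06 ± 0.08 (SE, adjusted p = 0.987) in SP, with an interval of −0.10 to 0.23. The other 11 G1/S genes, which hold *E2f1*, cyclin E2, the helicase activators *Cdc45* and *Gins2*, *Mcm2*, *Mcm3*, *Mcm7* and the nucleotide enzymes *Rrm1*, *Rrm2*, *Tyms* and *Tk1*, had no unadjusted p under 0.05 in either inhibitor comparison. Among them *Cdc45* was lowest in WT (−0.28 ± 0.18 SE, adjusted p = 0.463), *Mcm3* was lowest in SP (−0.18 ± 0.19 SE, adjusted p = 0.986), and *Gins2* was highest in both, at 0.29 ± 0.29 (SE, adjusted p = 0.637) and 0.28 ± 0.29 (SE, adjusted p = 0.986), although its value in WT was −0.17 without WT MAT2Ai replicate 2.

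*Mki67*, a G2/M gene, encodes the Ki-67 antigen used to mark proliferating cells. *Mki67* stood at 0.91, 1.9, 0.938, 1.28 and 1.39 CPM in WT placebo, against 1.15, 0.73, 0.979, 1.08 and 2.42 CPM in WT MAT2Ai. In SP kidneys *Mki67* stood at 1.32, 1.11, 1.08, 1.34 and 1.79 CPM with placebo and at 1.19, 1.83, 0.683, 1.61 and 1.05 CPM with MAT2Ai. The group means were 1.28 ± 0.405, 1.27 ± 0.66, 1.33 ± 0.286 and 1.27 ± 0.454 CPM (SD, n = 5 each) in WT placebo, WT MAT2Ai, SP placebo and SP MAT2Ai. WT MAT2Ai replicate 5 was the highest library and SP MAT2Ai replicate 3 the lowest, and the differences were −0.02 ± 0.31 (SE, adjusted p = 0.981) and −0.06 ± 0.30 (SE, adjusted p = 0.995), with intervals of −0.66 to 0.62 and −0.70 to 0.57.

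*Top2a*, the topoisomerase that untangles sister chromatids, had a wider range. *Top2a* stood at 0.74, 2.6, 0.792, 0.416 and 1.27 CPM in WT placebo, against 0.837, 0.466, 0.619, 1.03 and 2.82 CPM in WT MAT2Ai. In SP kidneys *Top2a* stood at 1.25, 0.396, 0.422, 0.86 and 1.03 CPM with placebo and at 1.58, 1.15, 0.733, 1.49 and 0.73 CPM with MAT2Ai. In both WT groups 1 library, placebo replicate 2 and MAT2Ai replicate 5, stood at 2.60 and 2.82 CPM, above 1.27 and 1.03 CPM in the next library, and the differences were −0.02 ± 0.50 (SE, adjusted p = 0.988) and 0.52 ± 0.50 (SE, adjusted p = 0.986).

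The kinase gene *Cdk1* and its partner cyclin B1 had fitted differences below 0 in WT and above 0 in SP, with intervals that held 0 in both. *Cdk1* stood at 0.341, 1.16, 0.388, 0.765 and 0.656 CPM in WT placebo, against 0.468, 0.357, 0.374, 0.728 and 0.783 CPM in WT MAT2Ai. In SP kidneys *Cdk1* stood at 0.68, 0.548, 0.344, 0.291 and 0.723 CPM with placebo and at 0.488, 0.701, 0.767, 0.81 and 0.441 CPM with MAT2Ai. Its differences were −0.30 ± 0.35 (SE, adjusted p = 0.699) and 0.31 ± 0.35 (SE, adjusted p = 0.986), and WT placebo replicate 2 was the highest library, without which the difference in WT was −0.01. *Ccnb1* stood at 0.114, 0.58, 0.42, 0.266 and 0.688 CPM in WT placebo, against 0.27, 0.186, 0.36, 0.124 and 0.626 CPM in WT MAT2Ai. In SP kidneys *Ccnb1* stood at 0.367, 0.426, 0.281, 0.189 and 0.195 CPM with placebo and at 0.244, 0.599, 0.417, 0.373 and 0.471 CPM with MAT2Ai. For *Ccnb1* they were −0.41 ± 0.44 (SE, adjusted p = 0.669) and 0.53 ± 0.44 (SE, adjusted p = 0.972), the interaction was 0.94 ± 0.62 (SE, adjusted p = 0.847), and the groups overlapped. In WT the difference of *Ccnb1* was −0.16 without placebo replicate 5.

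*Nusap1*, which binds spindle microtubules, and *Cdc20*, which activates the ubiquitin ligase that ends mitosis, had the smallest p in WT. *Nusap1* stood at 0.853, 1.22, 1.07, 0.715 and 1.12 CPM in WT placebo, against 1.28, 2.39, 0.518, 3.3 and 1.58 CPM in WT MAT2Ai. In SP kidneys *Nusap1* stood at 0.966, 1.14, 0.75, 1.0 and 1.06 CPM with placebo and at 0.991, 1.17, 2.58, 0.784 and 0.73 CPM with MAT2Ai. WT MAT2Ai replicates 4 and 2 were high, replicate 3 was the lowest of all 20, and the difference was 0.86 ± 0.38 (SE, adjusted p = 0.287) with an unadjusted p of 0.0365, or 1.03 without replicates 2 and 3 and 0.53 without replicate 4. *Cdc20* stood at 0.872, 2.32, 0.55, 0.998 and 0.969 CPM in WT placebo, against 0.582, 0.808, 0.749, 0.71 and 0.887 CPM in WT MAT2Ai. In SP kidneys *Cdc20* stood at 0.83, 0.685, 0.75, 0.787 and 1.2 CPM with placebo and at 1.17, 1.18, 0.783, 1.22 and 0.745 CPM with MAT2Ai. Placebo replicate 2 was the highest of all 20 libraries, the difference was −0.62 ± 0.29 (SE, adjusted p = 0.317), and without that library it was −0.19.

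*Plk1* (a mitotic kinase) and *Birc5* (survivin) followed *Mcm6* and *Cdt1* in SP. *Plk1* stood at 0.228, 0.372, 0.566, 0.482 and 0.547 CPM in WT placebo, against 0.255, 0.746, 0.173, 0.693 and 0.713 CPM in WT MAT2Ai. In SP kidneys *Plk1* stood at 0.463, 0.289, 0.219, 0.321 and 0.236 CPM with placebo and at 0.406, 0.511, 0.217, 0.707 and 0.517 CPM with MAT2Ai. It overlapped in both genotypes, at 0.63 ± 0.40 (SE, adjusted p = 0.94) in SP and 0.22 ± 0.39 (SE, adjusted p = 0.815) in WT. *Birc5* stood at 0.284, 1.29, 0.517, 0.698 and 0.813 CPM in WT placebo, against 0.369, 0.746, 0.576, 1.39 and 0.957 CPM in WT MAT2Ai. In SP kidneys *Birc5* stood at 0.612, 0.518, 0.516, 0.364 and 0.626 CPM with placebo and at 0.894, 0.745, 0.80, 0.759 and 0.563 CPM with MAT2Ai. Here 4 of 5 SP MAT2Ai libraries lay above all 5 SP placebo libraries, and the difference was 0.51 ± 0.34 (SE, adjusted p = 0.959), against 0.15 ± 0.34 (SE, adjusted p = 0.863) in WT.

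*Stmn1*, the most abundant of the 39, had the narrowest interval. *Stmn1* stood at 25.5, 26.1, 24.4, 24.9 and 21.2 CPM in WT placebo, against 26.2, 27.4, 26.1, 28.6 and 25.6 CPM in WT MAT2Ai. In SP kidneys *Stmn1* stood at 24.2, 22.2, 25.7, 25.3 and 24.7 CPM with placebo and at 24, 29, 26, 26 and 22.9 CPM with MAT2Ai. The groups overlapped, and the differences were 0.13 ± 0.07 (SE, adjusted p = 0.342) in WT and 0.07 ± 0.07 (SE, adjusted p = 0.986) in SP. The other 11 G2/M genes that were tested, namely the cyclin genes *Ccna2* and *Ccnb2*, the Aurora kinase genes *Aurka* and *Aurkb*, the checkpoint gene *Bub1b*, the motor genes *Kif11* and *Kif20a*, the spindle genes *Tpx2* and *Prc1*, *Foxm1* and *Ube2c*, had no unadjusted p under 0.05 in either inhibitor comparison. Among them *Aurkb* was lowest in WT (−0.76 ± 0.54 SE, adjusted p = 0.496) and *Prc1* was lowest in SP (−0.58 ± 0.40 SE, adjusted p = 0.959).

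Averaged over both genotypes, 0 of 38 genes passed, where 0.223% of all genes did, and DESeq2 and limma-voom also passed 0. At an unadjusted p under 0.05 edgeR and DESeq2 had 3, *Cdt1* (0.36 ± 0.15 SE, adjusted p = 0.28) and *Nusap1* (0.60 ± 0.27 SE, adjusted p = 0.316) higher and *Mcm6* lower, against 14.7% of all genes by edgeR. Limma-voom, with no share taken over all genes, had *Cdt1* higher and *Mcm6* and *Prc1* lower. *Stmn1* came next at 0.10 ± 0.05 (SE, adjusted p = 0.34). The interaction passed 0 of 38, where 0% of all genes passed, and edgeR and DESeq2 had 1 gene, *Cdc20* (0.88 ± 0.41 SE, adjusted p = 0.842), at an unadjusted p under 0.05, against 5.59% of all genes. Limma-voom had *Cdc6* and *Plk1* there, again with no share of all genes taken. *Cdc6*, *Ccnb1* and *Mcm7* (−0.15 ± 0.12 SE, adjusted p = 0.867) came next by edgeR.

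The comparison of genotypes without the inhibitor was made with the groups as labelled. It holds SP placebo replicates 1 and 2, whose *Slc5a2* level went against their label. Without these libraries 1 of all genes tested passed, and no member did. Between SP placebo and WT placebo 0 of 38 passed, where 0% of all genes passed, with DESeq2 and limma-voom at 0 too. At an unadjusted p under 0.05 there were 0 of 38, against 3.75% of all genes. DESeq2 (*Mcm5*) and limma-voom (*Mcm3*) had 1 each, with no share of all genes taken for these tools. The values (SP over WT) were negative for 29 of 38 genes, with a median of −0.10 beside 0.00 over all genes, but without WT placebo replicate 2 they split into 19 and 19 with a median of −0.01. The smallest p belonged to *Mcm5* (−0.36 ± 0.18 SE, adjusted p = 1), *Mcm3* (−0.33 ± 0.19 SE, adjusted p = 1), *Cdc20* (−0.43 ± 0.29 SE, adjusted p = 1) and *Birc5* (−0.46 ± 0.35 SE, adjusted p = 1). Without WT placebo replicate 2 the value of *Cdc20* was 0.00, on the other side of 0, and that of *Birc5* was −0.14. Among markers of other cell types the values were negative for 8 of 8 macrophage, 6 of 6 endothelial, 4 of 4 neutrophil and 7 of 8 lymphocyte markers tested (medians −0.37, −0.20, −0.56 and −0.41). They were also negative for 7 of 9 injured tubule markers (−0.28). Values were positive for 5 of 6 erythroid and 5 of 7 proximal tubule markers (medians 0.345 and 0.05) and for 50% of all genes. None of these markers passed, and their part in the values of the 38 genes was not tested.

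Between SP MAT2Ai and WT MAT2Ai 0 of 38 passed with edgeR, where 1.84% of all genes (298) passed. DESeq2 and limma-voom also passed 0 of 38, where they passed 1203 and 397 of all genes. At an unadjusted p under 0.05 there were 3, all lower in SP and all of the replication group, against 21.8% of all genes: *Cdc6* (−1.21 ± 0.49 SE, adjusted p = 0.161), *Mcm4* (−0.42 ± 0.19 SE, adjusted p = 0.199) and *Mcm3* (−0.41 ± 0.19 SE, adjusted p = 0.217), followed by *Cdc45* (0.37 ± 0.18 SE, adjusted p = 0.238). DESeq2 had the same 3 lower and *Cdc45* higher, and limma-voom had *Cdc6*, *Mcm3* and *Mcm6* lower, both without a share of all genes. Without WT MAT2Ai replicate 2, with or without replicate 3, edgeR had 0 genes under 0.05. Without both, *Cdc6* stood at −0.77 and *Mcm4* at −0.09. The median was −0.14 over the 18 G1/S genes and −0.01 over the 20 G2/M genes. In the same comparison 9 of 9 injured tubule markers had negative values and 3 passed as lower, and 8 of 8 macrophage markers had negative values and 3 passed as lower. Without WT MAT2Ai replicates 2 and 3, 0 of all genes tested passed in this comparison, so none of these calls was kept. The number was also 0 without SP MAT2Ai replicate 3 alone, and it was 774 without WT MAT2Ai replicate 4. Of 6 endothelial markers all were negative, 4 of them at an unadjusted p under 0.05, as were 8 of 8 lymphocyte markers, 2 of them at that level. The part of these lists in the values of the 38 genes was not tested.

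No member held 5 libraries of one group all above the 5 of the other in any of the 4 pairs of groups, 0 of 38 each time. Among all genes tested that occurred for 2.19% between WT MAT2Ai and WT placebo, 1.58% between SP MAT2Ai and SP placebo, 1.19% between SP placebo and WT placebo and 3.4% between SP MAT2Ai and WT MAT2Ai.

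In WT placebo the highest library held a median of 3.49 times the lowest over the 20 G2/M genes, with 18 of 20 over 2-fold. The median was 2.64 times in WT MAT2Ai, 2.18 times in SP placebo and 2.51 times in SP MAT2Ai. Over the 18 G1/S genes it was 1.60, 1.94, 1.40 and 1.54 times in the same order. Within WT placebo, replicate 2 was the highest library for 14 of 20 G2/M and 11 of 18 G1/S genes, and replicate 1 was the lowest for 13 and 9 of them. In WT MAT2Ai, replicate 5 was the highest for 15 of 20 G2/M genes but for 2 of 18 G1/S genes. Shares over all genes were not taken within a group. WT MAT2Ai replicate 5 also had the highest mitochondrial share of gene counts of the 20 libraries, 22.2%, where the lowest was 12.4%. A relation of that share to the G2/M genes was not tested.

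**Figure D3:**
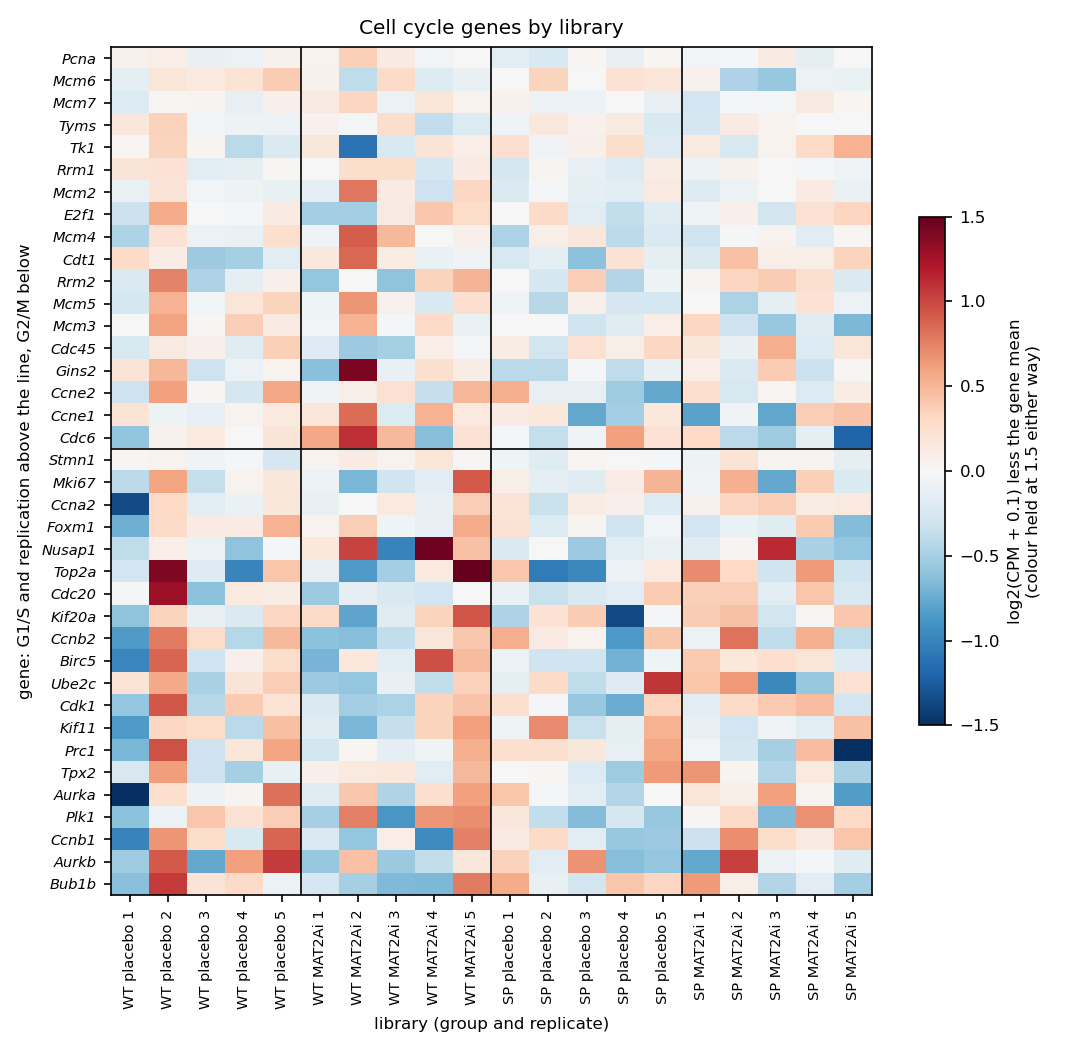
Each of the 38 genes (rows, in order of mean CPM within the G1/S and the G2/M set) in each of the 20 libraries (columns), as log2(CPM + 0.1) less the mean of the gene, with the colour held at 1.5 either way. The columns of WT placebo 2 and WT MAT2Ai 5 are red over most G2/M genes, WT placebo 1 is mostly blue there, and WT MAT2Ai 2 is red mostly above the line.

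WT MAT2Ai replicate 2 was the highest of all 20 for 10 of 18 G1/S genes (*Ccne1*, *Mcm2*, *Mcm4*, *Mcm5*, *Mcm7*, *Cdt1*, *Cdc6*, *Pcna*, *Rrm1* and *Gins2*) and for 1 of 20 G2/M genes (*Plk1*), where 22.6% of all genes had their highest value there. Its mean log2 level over the G1/S genes was 0.33 above the mean of all libraries, the highest of the 20, while over the G2/M genes it was −0.14. *Tk1* was at its lowest there, at 4.64 CPM. The injured tubule markers of the same library, 9 of 9, summed to 8053 CPM (other groups: 502 to 589 in WT placebo, 444 to 622 in SP placebo and 487 to 694 in SP MAT2Ai), and their part in the replication genes was not tested. WT placebo replicate 2 was the highest for 9 of 38 genes (*Rrm2*, *Tyms*, *E2f1*, *Ccne2*, *Mcm3*, *Cdc20*, *Cdk1*, *Prc1* and *Bub1b*), against 6.03% of all genes, and it also had the highest sum of the 6 endothelial markers, 236 CPM against 76.4 to 221 CPM elsewhere, a relation that was not tested. WT MAT2Ai replicate 5 was the highest for 5 (*Foxm1*, *Kif20a*, *Top2a*, *Ccna2* and *Mki67*), all of G2/M, against 7.05% of all genes.

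Wider lists of the same pathway are given beside them. Of 40 further G1/S genes tested, 0 passed in either inhibitor comparison, and the smallest p in WT belonged to *Tipin* (0.33 ± 0.13 SE, adjusted p = 0.231), *Cdk2* (0.28 ± 0.11 SE, adjusted p = 0.244), *Pole* (0.84 ± 0.35 SE, adjusted p = 0.256) and cyclin D1, *Ccnd1* (−0.68 ± 0.29 SE, adjusted p = 0.267). In SP they were *Cdk4*, the partner of cyclin D (−0.19 ± 0.07 SE, adjusted p = 0.833), *Rpa2* (0.21 ± 0.13 SE, adjusted p = 0.939), *Rfc5* (0.12 ± 0.08 SE, adjusted p = 0.959) and *Chaf1a* (0.23 ± 0.16 SE, adjusted p = 0.959). Of 49 further G2/M genes 0 passed in either, and *Gtse1*, *Kif23* (1.60 ± 0.47 SE, adjusted p = 0.168), *Ckap2* (1.05 ± 0.37 SE, adjusted p = 0.218) and *Kif4* (−0.93 ± 0.36 SE, adjusted p = 0.232) led in WT. Without WT MAT2Ai replicate 2, *Kif23* stood at 0.67 and *Cdk2* at 0.16, and without replicate 5 *Pole* stood at 0.56. In SP the leading G2/M genes were *Cdca8* (0.63 ± 0.21 SE, adjusted p = 0.804), *Ckap2* (0.89 ± 0.38 SE, adjusted p = 0.833), *Spc24* (0.41 ± 0.19 SE, adjusted p = 0.833) and *Cdca3* (0.31 ± 0.15 SE, adjusted p = 0.866).

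Of 18 tested genes listed as brakes on the cycle, *Cdkn1a*, which encodes the cyclin-dependent kinase inhibitor p21, passed in the average over both genotypes. So did *Gtse1*, a G2 gene that p53 can induce, among the 49 further G2/M genes tested. In that comparison 0.223% of all genes passed. Both lists were chosen with earlier results of these data known, so these calls are not an independent finding. *Cdkn1a* stood at 5.33, 5.62, 7.84, 4.64 and 5.52 CPM in WT placebo, against 19.5, 237, 17.7, 31.1 and 11.7 CPM in WT MAT2Ai. In SP kidneys *Cdkn1a* stood at 6.23, 3.61, 4.06, 2.94 and 5.49 CPM with placebo and at 18.9, 17.1, 22.5, 9.2 and 9.78 CPM with MAT2Ai. All 5 MAT2Ai libraries lay above all 5 placebo libraries in both genotypes, and WT MAT2Ai replicate 2, at 237 CPM, stood above 31.1 CPM in the next library. The averaged difference was 2.62 ± 0.45 (SE, adjusted p = 0.012), with 3.45 ± 0.65 (SE, adjusted p = 0.129) in WT and 1.79 ± 0.63 (SE, adjusted p = 0.804) in SP. It was 1.78 in WT and 1.78 on average without WT MAT2Ai replicate 2 (adjusted p = 0.0883 and 0.000442). In SP it passed, at 1.79 with an adjusted p of 0.0132, once that WT library no longer entered the shared estimate of the spread, and it also passed when the SP libraries were fitted alone. Of all alternatives, the averaged call was lost in 1, at an adjusted p of 0.0896 without SP placebo replicates 1 and 2.

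*Gtse1* stood at 0.0948, 0.104, 0.0808, 0.266 and 0.234 CPM in WT placebo, against 0.61, 4.61, 0.446, 0.977 and 0.678 CPM in WT MAT2Ai. In SP kidneys *Gtse1* stood at 0.286, 0.152, 0.328, 0.321 and 0.264 CPM with placebo and at 0.634, 0.555, 0.767, 0.617 and 0.243 CPM with MAT2Ai. The WT groups did not overlap, and in SP 4 of 5 MAT2Ai libraries lay above all 5 placebo libraries. Its averaged difference was 2.13 ± 0.40 (SE, adjusted p = 0.0262), with 3.21 ± 0.59 (SE, adjusted p = 0.129) in WT and 1.05 ± 0.55 (SE, adjusted p = 0.892) in SP, and 1.57 on average without WT MAT2Ai replicate 2. That call was lost in 10 of the 20 fits that left out 1 library (SP MAT2Ai replicate 2 or 3, any SP placebo replicate, or WT placebo replicate 1, 2 or 3), at adjusted p values up to 0.0654. It was also lost without SP placebo replicates 1 and 2 together, at 0.160. In WT alone both genes passed with DESeq2, *Cdkn1a* passed without WT MAT2Ai replicate 1, 4 or 5, and *Gtse1* passed without WT MAT2Ai replicate 1, 3, 4 or 5. The other genes in the list of brakes with the smallest p were *Btg2* (1.37 ± 0.46 SE, adjusted p = 0.196), *Btg1* (0.34 ± 0.14 SE, adjusted p = 0.247) and *Cdkn2b* (1.22 ± 0.54 SE, adjusted p = 0.283) in WT, and *Lin9* (0.24 ± 0.10 SE, adjusted p = 0.833), *Btg2* (1.09 ± 0.46 SE, adjusted p = 0.833) and *Cdkn1c* (0.24 ± 0.14 SE, adjusted p = 0.939) in SP. *Lin9* belongs to the MuvB complex, which also drives the mitotic wave, so it is not a brake alone. In WT, *Btg2* stood at 0.32 and *Btg1* at 0.18 without WT MAT2Ai replicate 2, and *Cdkn2b* at 0.40 without replicate 3. In the 10 WT libraries *Cdkn1a* was among the 2.19% of all genes tested that did not overlap between placebo and MAT2Ai. No member of the 38, *Mki67* and *Pcna* included, was among them, and at that share few of any 38 genes would be.

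**Figure D4:**
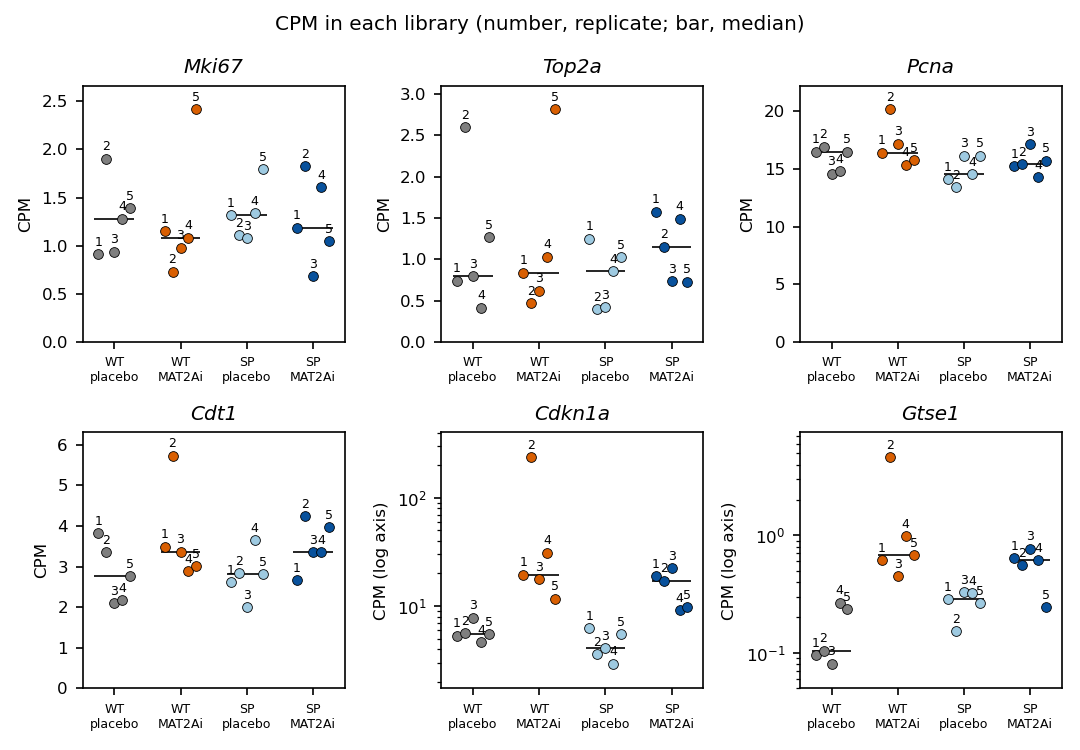
CPM of *Mki67*, *Top2a*, *Pcna* and *Cdt1* (linear axes from 0) and of *Cdkn1a* and *Gtse1* (log axes) in each library; points are libraries numbered by replicate and bars are group medians. *Cdkn1a* lies between 2.94 and 7.84 CPM in all 10 placebo libraries and between 9.20 and 237 CPM in all 10 MAT2Ai libraries. The ranges of the 4 cell cycle genes overlap between placebo and MAT2Ai. Within WT, 2.19% of all genes tested show no overlap between placebo and MAT2Ai.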

How the data were processed

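Poly(A) RNA of kidney cortex was made into directional libraries and sequenced on a NovaSeq by the authors, who trimmed the reads, aligned them to mm10 with STAR 2.5.2 and deposited raw counts per gene from htseq-count (Ensembl 78). The deposited counts are raw. How the counting treated strand is not given in the sources used here. Reads in no annotated gene were 3.87% to 5.49% and ambiguous reads 0.702% to 0.794%, and the lines that hold them stayed out of library sizes and tests. Symbols and exon lengths came from GENCODE M21.

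Low-count genes were removed by filterByExpr, library sizes were adjusted by TMM, and 16152 genes were tested with edgeR 4.0.16 (glmQLFit and glmQLFTest, R 4.3.3) on all 20 libraries, 1 coefficient per group and no covariates. P values were adjusted by the Benjamini-Hochberg method over all tested genes, with a threshold of 0.05. The SE was taken from the fold change and its F statistic, and intervals are at 95%. Alternatives were DESeq2 1.42.0, limma-voom (limma 3.58.1) with sample weights, DESeq2 size factors in edgeR, no filter, the compared groups alone, a block on replicate number, each library left out, and the pairs of libraries named in the text left out. The scripts were tested on simulated data.

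The 39 genes and the wider lists were chosen with earlier results of these data known. Full statistics were given for the 4 genes with the smallest p in each comparison, per-library values for these genes in the inhibitor comparisons and for 8 others (Mki67, Top2a, Cdk1, Ccnb1, Ccne1, Cdc6, Mcm5 and Pcna), and the 4 smallest p of each wider list. No libraries of a group agreed within sampling noise. Each library is labelled as a separate replicate, and p values measure the spread between these libraries. All 20 columns of counts were used.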

Additional observations from a re-analysis of the deposited data

Results flagged for a closer look

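In each group of 5 the library at either end was compared with the rest by Dixon's test, over 152 sets of 1 gene and 1 group. In 13 sets 1 library stood apart. Chance gives about 1 in 20 for normally spread and independent sets, which CPM of scarce genes from the same libraries need not be. Among G1/S genes, *Cdc6* was low in WT placebo replicate 1 (0.0758 CPM, next 0.166). *Mcm2* was high in WT placebo replicate 2 (7.74 CPM, next 6.53). *Cdt1* (5.73 CPM, next 3.49) and *Gins2* (4.32 CPM, next 1.86) were high in WT MAT2Ai replicate 2.

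Among G2/M genes, WT MAT2Ai replicate 5 was high for *Mki67* (2.42 CPM, next 1.15), *Top2a* (2.82 CPM, next 1.03) and *Bub1b* (0.365 CPM, next 0.128). WT placebo replicate 2 was high for *Cdc20* (2.32 CPM, next 0.998) and *Tpx2* (0.774 CPM, next 0.422). In SP kidneys *Cdc20* was high in placebo replicate 5 (1.196 CPM, next 0.830). With MAT2Ai, *Aurkb* was high in replicate 2 (0.584 CPM, next 0.232), *Nusap1* in replicate 3 (2.58 CPM, next 1.17) and *Kif11* in replicate 5 (0.791 CPM, next 0.533).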

How the results depend on the processing

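No member passed the threshold in any of the 6 comparisons under any alternative run. The median over the members moved by less than 1 SD between libraries in each. That bound was wider than the medians themselves, so it cannot show that they held. The median between genotypes with placebo, for example, depended on WT placebo replicate 2. Among the medians over the G1/S or the G2/M members alone, 1 moved by 1 SD or more. Of 6306 fits of single members beside the reported ones, 371 changed sign. The counts over all genes depended on the tool: 0, 215 and 2 genes passed with edgeR, DESeq2 and limma-voom for the inhibitor in WT, 3, 27 and 17 in SP, 0, 7 and 4 between genotypes with placebo, 298, 1203 and 397 between genotypes with MAT2Ai, 36, 192 and 70 for the average, and 0, 1 and 0 for the interaction. Without WT MAT2Ai replicates 2 and 3 the 298 became 0, and without SP placebo replicates 1 and 2 the 36 became 4. The 298 also became 0 without SP MAT2Ai replicate 3 alone, and 774 without WT MAT2Ai replicate 4.

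With a replicate block the median log2 fold change of the members was 0.00 in WT and 0.07 in SP for the inhibitor, −0.09 and −0.04 between genotypes with placebo and MAT2Ai, 0.05 on average and 0.04 for the interaction, and 0 members passed. Over all genes 0, 4, 0, 88, 30 and 0 passed, and *Gtse1* lost its averaged call (1.95). Libraries with the same number shared little: over 30 pairs the correlation of their deviations ran from −0.157 to 0.265 with 4 over 0.1. Of 20 libraries, 6 were best matched by their own number. These values show no clear pairing of the mice by number but cannot exclude one. Counting error, which depth sets, and the spread between mice both enter the intervals and were not separated.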
